A study of Rattus norvegicus with 6 samples.

Results

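The aminoacyl-tRNA synthetase genes were followed in rat neural stem/progenitor cells (NSPCs) grown on carbon films of graded electrical conductivity. The members were taken by symbol alone, as the rows named for an amino acid letter followed by ars, with or without a 1 or 2, together with Eprs, Farsa and Farsb. This gave 35 rows of the 17048 in each count table, namely 20 cytosolic genes and 15 mitochondrial genes, the latter ending in 2. After the filter on low counts 30 of them entered the test of 7729 rows, comprising all 20 cytosolic genes and 10 of the 15 mitochondrial ones.

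RNA was measured in 6 libraries of wild-type cells, 2 for each film, after 24 h in a medium that maintains stemness. The “High”, “Medium” and “Low” films were bilayers of carbon nanotube and graphene oxide nanoribbon, whose conductivity decreases from “High” to “Medium” to “Low” with longer oxidation of the nanotubes, so that oxidation and conductivity moved together in these films and cannot be told apart here. In the study the films were meant to separate conductivity from other surface properties that could act on the fate of NSPCs. No library of cells on a non-carbon surface was analysed here. The labels do not say whether the 2 libraries of a film came from separate cultures, so the p-values measure only the spread between these libraries, which may be technical. The depth of the 2 “High” libraries was 5478066 and 5412882 counts, that of “Medium” 5124863 and 5914540 counts, and that of “Low” 6213676 and 5460031 counts. All levels below are library-scaled counts (CPM, after TMM scaling), from reads of transcript 3′ ends with no correction for length, and so a level stands for transcript ends.

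Each synthetase attaches its own amino acid, and the fused Eprs both glutamate and proline, to the matching transfer RNA. This step fixes the meaning of the genetic code and feeds the ribosome. The cytosolic and mitochondrial compartments are mostly served by separate nuclear genes, and in the cytosol a subset of the enzymes is held together in the multisynthetase complex. When amino acids run short, uncharged transfer RNA activates the kinase GCN2, eIF2α is phosphorylated, and the transcription factor ATF4 turns on amino acid transporters, amino acid synthesis and many cytosolic synthetase genes.

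The cells carried the transcripts of their label. Nestin (Nes), an intermediate filament of neural progenitors, measured 92.7 and 82.1 CPM in “High”, 408 and 327 CPM in “Medium”, and 199 and 207 CPM in “Low”. Sox2, a transcription factor of neural stem cells, measured 268 and 266 CPM in “High”, 598 and 554 CPM in “Medium”, and 705 and 683 CPM in “Low”. Both markers were thus lower in the 2 “High” libraries than in the other 4, while 3 of the 12 stem cell markers, Hes5, Msi1 and Prom1, were listed at 0 throughout. The summed level of the 12 markers, of which vimentin (Vim) was the most abundant, was 3619 and 3313 CPM in “High”, 5703 and 5683 CPM in “Medium”, and 4769 and 6514 CPM in “Low”. Oligodendrocyte lineage markers, led by Olig2 and lacking Sox10, summed to 326 and 413 CPM in “High”, 639 and 556 CPM in “Medium”, and 748 and 619 CPM in “Low”. Neuronal markers, led by Elavl4 and with Rbfox3 and Syp at 0, stayed between 25.5 and 151 CPM, and astrocyte markers, led by Gja1 and with Aqp4 and Aldh1l1 at 0, between 129 and 220 CPM. Of 8 microglial markers 7 were at 0 in every library, the exception being Aif1 with 7.10 CPM in the first “Low” library. Meningeal and vascular markers were at 392 CPM in the second “Medium” library, led by Col1a1, and at 35.8 CPM or less in the other 5, with 7 of these 10 markers at 0. The “High” libraries also stood apart in ribosomal RNA, which took 26.1% and 38.4% of their counts, against 7.27% and 13.0% on “Medium” films and 7.16% and 7.64% on “Low” films. The part of these shifts in the synthetase levels was not tested. In bulk samples, fewer cells of a type and less RNA per cell cannot be told apart.

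The cytosolic synthetases were well measured and the mitochondrial ones were not. Of the 120 cytosolic values 3 were at 0, and 17 of the 20 genes had counts in every library. Of the 90 mitochondrial values 48, or 53.3%, were at 0, and only Rars2 had counts in every library. Mean levels ran from 14.3 CPM (Dars) to 492 CPM (Kars) among cytosolic genes and from 0 to 35.5 CPM (Tars2) among mitochondrial genes. A count of 0 allows up to 3 counts, or 0.435 to 0.716 CPM depending on the library, and these floors cover counting error only. Summed over the 20 cytosolic genes, the level was 4194 and 3506 CPM in “High”, 2806 and 3620 CPM in “Medium”, and 2404 and 3070 CPM in “Low”. The means were 3850 ± 487 CPM in “High”, 3213 ± 576 CPM in “Medium” and 2737 ± 471 CPM in “Low” (SD, n = 2 each). Both “Low” sums lay below both “High” sums, whereas the “Medium” sums overlapped with “High”. As a share of raw counts, which is not scaled by TMM, the cytosolic genes took 0.372% and 0.271% on “High”, 0.319% and 0.373% on “Medium”, and 0.267% and 0.335% on “Low”, and on that scale all 3 films overlapped. Summed over the 15 mitochondrial genes, the level was 49.9 and 117 CPM in “High”, 391 and 137 CPM in “Medium”, and 118 and 133 CPM in “Low”, with both “High” sums the lowest of the 6, though 117 and 118 CPM hardly differ.

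**Figure D1:**
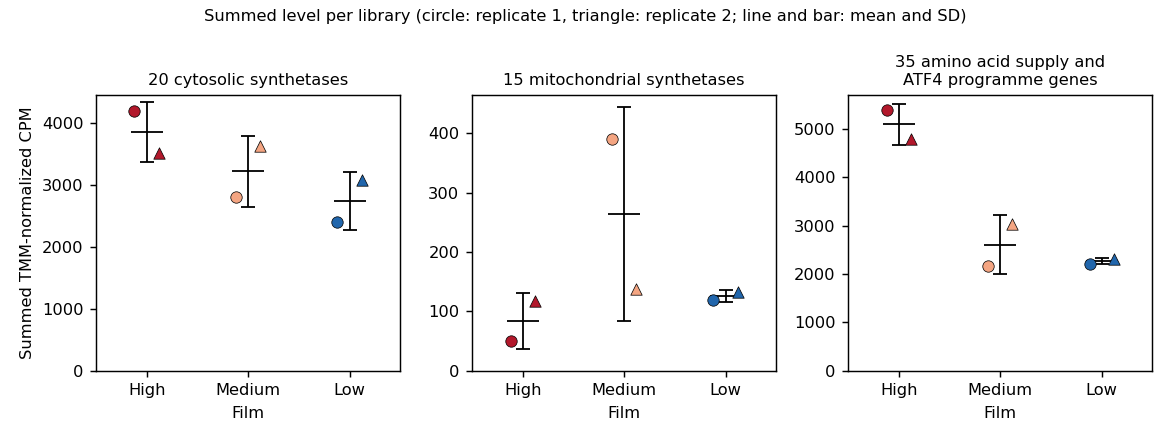
Summed TMM-scaled level (CPM) of the 20 cytosolic and the 15 mitochondrial synthetase genes in each of the 6 libraries, by film. Cytosolic sums run from 2404 to 4194 CPM and are highest on average on “High”, while mitochondrial sums run from 49.9 to 391 CPM with the first “Medium” library far above the others.

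No synthetase passed the adjusted threshold in any of the 4 comparisons of the quasi-likelihood test in edgeR (p-values adjusted by Benjamini-Hochberg over all rows), and the test as a whole called few rows. For “Low” and “Medium” together against “High” it called 0 of the 30 synthetases against 0.129% of all rows tested, and at an unadjusted p under 0.05 it held 4 synthetases against 5.5% of all rows. For “Low” against “High” it called 0 synthetases (0.0518% of all rows), with 4 at an unadjusted p under 0.05 (4.27% of all rows), all of them lower (1.71% of all rows) and none higher (2.56% of all rows). For “Medium” against “High” it called 0 (0.0129% of all rows), with 3 at an unadjusted p under 0.05 (4.04% of all rows), of which 2 were lower (1.64% of all rows) and 1 was higher (2.39% of all rows). For “Low” against “Medium” it called 0, as it did over all rows (0%), with 1 synthetase at an unadjusted p under 0.05 (1.51% of all rows), which was lower (0.789% of all rows, and 0.725% higher). DESeq2 on the same counts called 3, 2, 3 and 1 synthetases in these comparisons, in that order, where it called 4.85%, 3.88%, 3.97% and 1.5% of all rows, and limma-voom called 0 synthetases in each. The comparisons against “High” share the 2 “High” libraries and are not independent of each other. With 4 libraries against 2, an exact permutation test of a single gene cannot reach a two-sided p below 0.133.

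The most reproducible differences among the cytosolic genes were those of Aars, Nars and Kars. Aars, which charges alanine, measured 559 and 441 CPM in “High”, 166 and 161 CPM in “Medium”, and 174 and 180 CPM in “Low”. All 4 libraries of “Medium” and “Low” lay far below both “High” libraries and close to each other, a 2.93-fold higher mean in “High”. Its log2 fold change for “Low” and “Medium” against “High” was −1.55 (SE 0.32, unadjusted p = 0.000748, adjusted p = 0.199 by edgeR), the smallest p of the 30 synthetases. The adjusted p of Aars ran from 1.59e-07 with DESeq2 to 0.651 without the first “High” library over the alternatives tried, and fell under the threshold with DESeq2, without the filter on low counts, without the second “Medium” library, without the second “Low” library and with a replicate block. Its log2 fold change stayed below 0 in all alternatives, between −1.71 and −1.17.

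Nars, which charges asparagine, measured 393 and 430 CPM in “High”, 162 and 163 CPM in “Medium”, and 241 and 153 CPM in “Low”. Both “High” libraries lay above the other 4, while “Medium” and “Low” overlapped, and the log2 fold change was −1.20 (SE 0.36, unadjusted p = 0.00754, adjusted p = 0.612 by edgeR). Kars, which charges lysine in both cytosol and mitochondria from 1 gene, was the exception in direction. It measured 327 and 363 CPM in “High”, 617 and 588 CPM in “Medium”, and 486 and 573 CPM in “Low”. All 4 libraries of “Medium” and “Low” were above both “High” libraries, by 1.64-fold in the mean, with a log2 fold change of 0.71 (SE 0.27, unadjusted p = 0.0244, adjusted p = 0.801 by edgeR). Averaged over the 6 libraries Kars had the highest level of the synthetases, ahead of Gars and Aars, although in “High” the means of Aars, Eprs and Nars were above that of Kars. When rows of ribosomal RNA were left out the log2 fold changes were −1.56 for Aars, −1.21 for Nars and 0.70 for Kars, and with library sizes in place of TMM they were −1.17, −0.80 and 1.11 in the same order.

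Cars, Eprs and Yars also had all 4 “Medium” and “Low” libraries below both “High” libraries. Eprs, the fused enzyme for glutamate and proline in the multisynthetase complex, measured 510 and 357 CPM in “High”, 110 and 310 CPM in “Medium”, and 114 and 273 CPM in “Low”. Its log2 fold change was −1.10 (SE 0.49, unadjusted p = 0.0486, adjusted p = 0.801 by edgeR), and its 2 libraries of a film lay far apart on “Medium” and “Low”. Cars, which charges cysteine, measured 205 and 160 CPM in “High”, 54.6 and 103 CPM in “Medium”, and 46.1 and 121 CPM in “Low” (log2 fold change −1.17, SE 0.66, unadjusted p = 0.107). Yars, which charges tyrosine, measured 194 and 130 CPM in “High”, 103 and 120 CPM in “Medium”, and 5.94 and 55.2 CPM in “Low” (log2 fold change −1.47, SE 0.86, unadjusted p = 0.117). Leaving out each library in turn moved this log2 fold change between −2.65 and −1.05. For Yars the “Low” libraries were also below both “Medium” libraries. In all, 5 of the 20 cytosolic genes had every “Low” and “Medium” library below both “High” libraries, where 10.1% of all rows tested did, and 1 gene (Kars) had every one above, where 8.06% of all rows did.

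**Figure D2:**
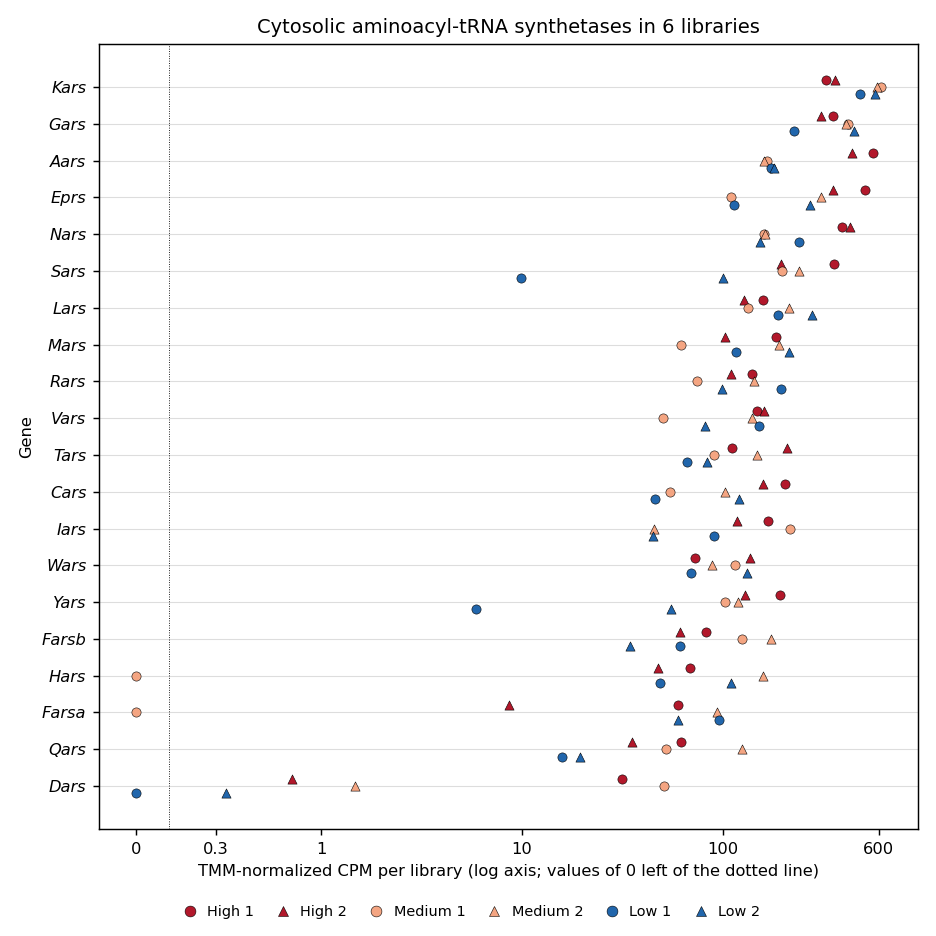
TMM-scaled level (CPM, log axis) of the 20 cytosolic synthetase genes in each library, colored by film. Aars and Nars show the “High” points above the other 4 with little spread, Kars shows them below, and Dars, Hars and Farsa spread over more than a log unit within a film.

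Sars, Tars, Qars and Dars had both “Low” libraries below those of both other films, which overlapped with each other. For Dars the separation from “High” lay within the floor, at 0 and 2 counts in “Low” against 3 in the second “High” library. Sars, which charges serine, measured 361 and 197 CPM in “High”, 198 and 240 CPM in “Medium”, and 9.85 and 101 CPM in “Low”. Both “Low” libraries were the lowest, with a log2 fold change for “Low” against “High” of −2.33 (unadjusted p = 0.0285, adjusted p = 0.899 by edgeR). For “Low” and “Medium” against “High” it was −1.34, and ran from −2.58 to −0.83 when each library was left out in turn. Tars, which charges threonine, measured 112 and 208 CPM in “High”, 91.0 and 148 CPM in “Medium”, and 66.5 and 83.9 CPM in “Low”. Its “Low” libraries likewise lay below the other films, while “Medium” and “High” overlapped. Qars, which charges glutamine, measured 62.4 and 35.3 CPM in “High”, 52.0 and 125 CPM in “Medium”, and 15.9 and 19.5 CPM in “Low”. Its “Low” libraries were close to each other and below the other 4. Across the cytosolic genes 10 of 20, Dars among them, had both “Low” libraries below both “High” libraries and 3 had both above, where 18% and 19.4% of all rows did. For “Medium” against “High” these counts were 6 below and 3 above, where 18.6% and 16.2% of all rows did. For “Low” against “Medium”, 7 cytosolic genes had both “Low” libraries below and 1, Aars, had both above, where 12.6% and 16.3% of all rows did.

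For the other cytosolic members named here, the 4 “Low” and “Medium” libraries did not all lie on one side of “High”. Gars, which charges glycine in both compartments, measured 353 and 309 CPM in “High”, 423 and 411 CPM in “Medium”, and 226 and 453 CPM in “Low”. Both “Medium” libraries of Gars lay above both “High” libraries, and its log2 fold change for “Low” and “Medium” against “High”, 0.18 (SE 0.35), was smaller than its error, as the second “Low” library was the highest of the 6 and the first the lowest. Lars, the leucine enzyme that is also known as a leucine sensor for mTORC1, had a log2 fold change of 0.49 (SE 0.47), with both “Low” libraries, at 188 and 279 CPM, above the “High” ones at 160 and 127 CPM. Mars and Rars, for methionine and arginine, had log2 fold changes of 0.017 and 0.021, which turned to −0.049 and −0.034 with the size factors of DESeq2. Hars and Farsa, for histidine and phenylalanine, were at 0 in the first “Medium” library against 159 and 93.7 CPM in the second. Dars, for aspartate, had 154 and 3 counts in “High”, 299 and 9 counts in “Medium”, and 0 and 2 counts in “Low”, a spread within films as wide as between them.

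Described by role, the 8 enzymes of the multisynthetase complex had 4 log2 fold changes above 0 and 4 below for “Low” and “Medium” against “High”, with a median of −0.14. The 12 cytosolic enzymes outside the complex had 4 above and 8 below, with a median of −0.66. The median over all 7729 rows was −0.12. Over all 20 cytosolic genes 12 were below 0 (54.1% of all rows were) and the median was −0.43, or −0.69 after each library was raised to at least 3 counts, where all rows gave −0.17. By catalytic fold, the 9 class I enzymes (median −0.31) and the 10 class II enzymes (median −0.29) had similar medians on this scale, but −0.32 and −0.93 after each library was raised to at least 3 counts, with Eprs holding both folds and left out of this division. The class I and class II medians were −0.41 and −0.82 for “Low” against “High”, and −0.17 and 0.39 for “Medium” against “High”, the latter pair being −0.33 and −0.34 after each library was raised to at least 3 counts. Without the first “High” library the cytosolic median was −0.081 and without the second “Medium” library −0.997, while all rows gave 0.32 and −0.63. With library sizes in place of TMM it was −0.060, where all rows gave 0.26. The median for “Low” against “High” was −0.82 over the cytosolic genes, with 13 of 20 below 0 (49.2% of all rows), and 0.016 over all rows. For “Medium” against “High” it was −0.15 over the cytosolic genes, with 12 of 20 below 0 (51.9% of all rows), and −0.059 over all rows. This cytosolic median turned to 0.15 without the first “High” library and to 0.22 with library sizes in place of TMM, and was −0.37 after each library was raised to at least 3 counts. For “Low” against “Medium” the median was −0.067, with 12 of 20 below 0 (46.9% of all rows). For none of the 3 scaffold proteins of the complex did the 4 “Low” and “Medium” libraries all lie on one side of “High”, while for Eef1e1 both “Medium” libraries lay above both “High” libraries. Aimp1 measured 273 and 133 CPM in “High”, 285 and 215 CPM in “Medium”, and 263 and 216 CPM in “Low”. Aimp2 ranged from 6.71 to 244 CPM and Eef1e1 from 37.9 to 134 CPM, and all 3 had log2 fold changes above 0, with a median of 0.31.

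The cytosolic genes were also divided by known regulation. Of the 13 enzymes listed as targets of ATF4, namely Aars, Cars, Eprs, Gars, Iars, Lars, Mars, Nars, Sars, Tars, Vars, Wars and Yars, 10 had a log2 fold change below 0 (54.1% of all rows did) and 5 had all “Low” and “Medium” libraries below both “High” ones (10.1% of all rows). At an unadjusted p under 0.05, 3 of the 13 were lower, where 2.81% of all rows were, and none was higher, where 2.69% were. Their median was −0.76, and over the alternatives it stayed between −1.02 and −0.34. Of the 7 other cytosolic enzymes, Dars, Farsa, Farsb, Hars, Kars, Qars and Rars, 2 were below 0 and 5 above, and the median was 0.24, or −0.047 after each library was raised to at least 3 counts. The 2 medians were −1.08 and 0.24 for “Low” against “High”, and −0.42 and 0.70 for “Medium” against “High”. No test of the difference between the 2 groups of genes was made.

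**Figure D3:**
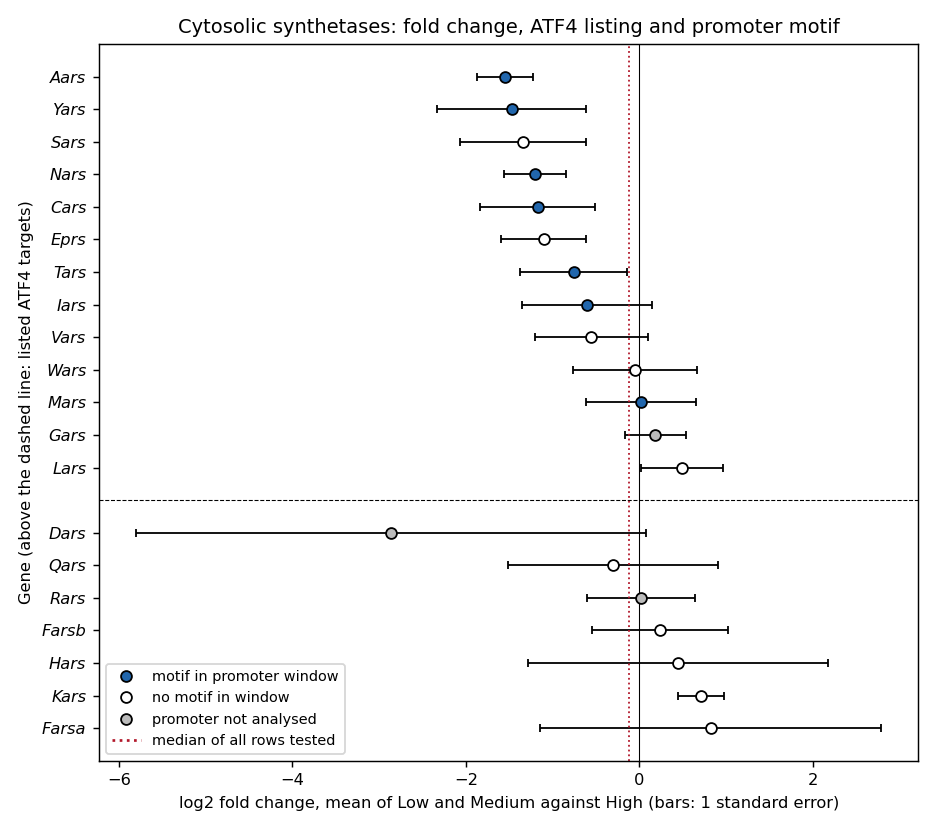
Log2 fold change of “Low” and “Medium” against “High” for the 20 cytosolic synthetase genes, with bars of 1 SE from the edgeR fit. The 13 enzymes listed as ATF4 targets stand above the dashed line and the 7 others below it. Fill shows the promoter window, blue with the element TGATGNAA, white without it and grey where it was not analysed. The dotted line marks the median of all rows tested. The listed targets run from −1.55 (Aars) to 0.49 (Lars), and the others from −2.87 (Dars, with a wide bar) to 0.82 (Farsa).

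Promoter sequence was compared with this division, because ATF4 with a C/EBP partner binds a composite element whose core reads TGATGNAA, or TTNCATCA on the other strand. Promoters were read from RefSeq on the GRCr8 build, from 250 bases before to 50 after each gene's start, and 31 of the 35 genes matched. The promoters of Dars, Rars and Gars, among others, were not analysed here. The element was present in 7 of 17 cytosolic promoters (41.2%), in 0 of 14 mitochondrial ones, in 1.84% of the 6415 promoters of rows tested and in 3.98% of all 33469 promoters. The 7 genes were Aars, Cars, Iars, Mars, Nars, Tars and Yars, all of them among the listed targets. They are shown because they carry nearly the same letters close to the start, which in all matches but the first of Aars1 lie between positions −27 and 46 from it. Each is printed on the gene's own strand, with the element in capitals, under its RefSeq name.
Aars1 at chr19:55908354-55908393, plus strand: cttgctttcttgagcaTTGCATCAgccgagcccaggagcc
Aars1, second match at chr19:55908475-55908514, plus strand: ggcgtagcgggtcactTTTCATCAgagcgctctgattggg
Cars1 at chr1:208225329-208225368, minus strand: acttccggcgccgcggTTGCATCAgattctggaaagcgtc
Iars1 at chr17:15193653-15193692, minus strand: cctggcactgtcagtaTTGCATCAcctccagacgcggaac
Mars1 at chr7:65023747-65023786, minus strand: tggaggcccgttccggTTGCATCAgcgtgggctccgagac
Nars1 at chr18:60275773-60275812, minus strand: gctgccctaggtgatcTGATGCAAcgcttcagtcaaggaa
Tars1 at chr2:62114806-62114845, minus strand: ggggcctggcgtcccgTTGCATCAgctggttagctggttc
Yars1 at chr5:146820185-146820212, plus strand: gagctacgagctcagcTGATGCAAcctg

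The open position of the element, written N above, was filled the same way in all of these matches but the second one of Aars1. A match describes letters in the window and not binding, which was not measured. Of the 7 genes with the element, 6 had a log2 fold change below 0 for “Low” and “Medium” against “High”, with a median of −1.17 and a range from −1.55 to 0.017 (Mars). Of the 10 cytosolic genes whose promoter was read and lacked it, 5 were below 0 and 5 above, with a median of 0.093 and a range from −1.34 (Sars) to 0.82 (Farsa). Of those above 0, Hars turned to −1.15 after each library was raised to at least 3 counts. Hars and Farsa turned to −1.85 and −0.73 with limma-voom, and Wars and Qars to 0.37 and 0.049 with library sizes alone. Over all rows tested with a promoter, 69 of the 118 with the element were below 0 (58.5%, median −0.35) against 3398 of 6297 without it (54%, median −0.12). The listed targets Eprs, Sars, Vars, Wars and Lars had no match in this window, and all of them but Lars had a log2 fold change below 0, that of Wars (−0.054) turning to 0.37 with library sizes in place of TMM.

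The mitochondrial synthetases gave irregular counts, often high in 1 library of a film and at or near 0 in the other. Tars2, the mitochondrial threonine enzyme, had 0 and 115 counts in “High”, 838 and 255 counts in “Medium”, and 0 and 0 counts in “Low”. With “Low” at the floor of 3 counts per library, its mean was at least 198-fold higher in “Medium”. That mean came from 144 CPM in the first “Medium” library and 41.8 CPM in the second. In “High” the mean of Tars2 rested on 1 library, the other being at 0 like those of “Low”, so these films overlapped. Its unadjusted p was 0.0167 for “Low” against “Medium” and 0.0346 for “Low” against “High”. Yars2, for tyrosine, had 0 and 0 counts in “High”, 335 and 76 counts in “Medium”, and 0 and 206 counts in “Low”. Lars2, for leucine, had no count in “High” or “Medium” and 167 and 185 in “Low”, at least 41.4-fold above “High” and 54.9-fold above “Medium” by the same floor. Lars2 was thus the one mitochondrial gene measured only on “Low” in both of its libraries, although the summed level of the mitochondrial genes was not higher in “Low” than in “Medium”.

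Further mitochondrial members varied widely between the libraries of a film. Rars2, for arginine, had 99 and 229 counts in “High”, 195 and 5 counts in “Medium”, and 210 and 9 counts in “Low”. Cars2, for cysteine, had 91 and 0 counts in “High”, 23 and 194 counts in “Medium”, and 41 and 53 counts in “Low”. Fars2, for phenylalanine, had 4 and 0 counts in “High”, 0 and 161 counts in “Medium”, and 213 and 22 counts in “Low”. Both “Low” libraries of Fars2 lay above both “High” libraries, and in each of these genes at least 1 film held both a high and a low library. Aars2, for alanine, had 16 and 0 counts in “High”, 301 and 0 counts in “Medium”, and none in “Low”. Ears2, for glutamate, had 29 and 6 counts in “High”, 0 and 110 counts in “Medium”, and 0 and 48 counts in “Low”. The median log2 fold change of the 10 genes tested was 0.50 for “Low” and “Medium” against “High”, with 6 above 0 and 4 below, and for none of the 10 did the 4 libraries all lie above or all below both “High” libraries (8.06% and 10.1% of all rows). It was −0.11 for “Low” against “High” and 2.02 for “Medium” against “High”. Without the second “Medium” library these 3 medians were −0.68, −0.11 and −0.10, and without the first “High” library 5.14, 4.95 and 5.95. With all 6 libraries, each raised to at least 3 counts, they were 0.92, 0.17 and 1.66. Several directions for “Low” and “Medium” against “High” rested on counts of 0. Lars2 and Yars2, both above 0, had no count in “High”. Raising each library to at least 3 counts turned Tars2 from −3.26 to 0.55 and Ears2 from 0.70 to −0.29. The 5 genes that did not enter the test were Wars2, with 253 counts in the first “Medium” library and 5 or fewer elsewhere, Pars2 and Sars2, with counts in the first “Low” library alone (143 and 20), and Nars2 and Vars2, at 0 throughout.

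**Figure D4:**
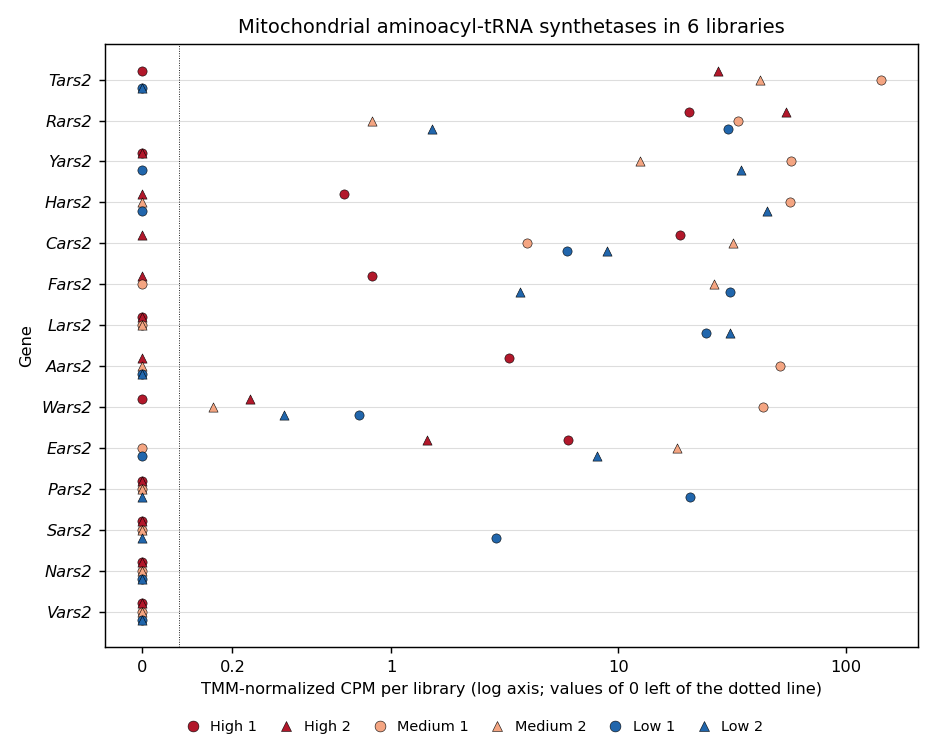
TMM-scaled level (CPM) of the mitochondrial synthetase genes in each library, for the 14 genes reported singly, colored by film. Most genes are at 0 in several libraries, Rars2 alone has counts in all 6, and the highest single value is 144 CPM for Tars2 in the first “Medium” library.

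Hars and Hars2, for cytosolic and mitochondrial histidine charging, lie head to head, and their promoter windows share 243 bases. Hars had 336 and 199 counts in “High”, 0 and 972 counts in “Medium”, and 336 and 658 counts in “Low”. Hars2 had 3 and 0 counts in “High”, 332 and 0 counts in “Medium”, and 0 and 268 counts in “Low”. In the first “Medium” library Hars2 had counts and Hars none, and in the second Hars had counts and Hars2 none. The 2 genes are similar in sequence and the authors counted multiple alignments too, so how reads were divided between them is uncertain.

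The spread between the 2 libraries of a film set what these comparisons could show. The median absolute log2 ratio between them was 0.512 in “High”, 0.809 in “Medium” and 0.887 in “Low” for the cytosolic genes, against 0.910, 1.33 and 0.915 for the 5947 rows at or above the mean level of the lowest cytosolic gene. For the mitochondrial genes tested it was 1.74, 4.28 and 2.72. Among cytosolic genes the largest ratio within a film was smallest for Kars (0.24), Aars (0.34), Nars (0.65) and Lars (0.67), and greatest for Hars (8.27), Farsa (7.51) and Dars (5.47), each value being a log2 ratio after raising libraries to 3 counts.

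Genes that work beside the synthetases were counted from a fixed list of 34 charging partners, of which 26 entered the test. For “Low” and “Medium” against “High” 17 had a log2 fold change above 0 and 9 below (54.1% of all rows were below 0), with a median of 0.25, or 0.016 after each library was raised to at least 3 counts. Pstk, the kinase that acts on seryl-tRNA on the way to selenocysteine, measured 57.9 and 54.9 CPM in “High”, 0.172 and 0 CPM in “Medium”, and 6.08 and 15.8 CPM in “Low” (unadjusted p = 0.0416, adjusted p = 0.801 by edgeR). Osgep, which modifies transfer RNA at the base beside the anticodon, measured 92.9 and 83.3 CPM in “High”, 57.5 and 59.9 CPM in “Medium”, and 7.97 and 25.5 CPM in “Low”. Ptrh2, a peptidyl-tRNA hydrolase, was the one partner of 26 with all 4 libraries above “High” (8.06% of all rows), where 2 had all 4 below (10.1% of all rows), at 28.2 and 0 CPM in “High”, 38.3 and 50.8 CPM in “Medium”, and 108 and 149 CPM in “Low”. Eef1a1, the factor that carries charged transfer RNA to the ribosome, ranged from 1085 to 1467 CPM over the 6 libraries with no separation of the films.

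Most members of the amino acid supply and ATF4 programme had lower values on “Low” and “Medium” than on “High”, without a call in edgeR. Of the 31 genes tested 25 had a log2 fold change below 0 (54.1% of all rows), 12 had all 4 libraries below both “High” ones (10.1% of all rows), and 9 were lower at an unadjusted p under 0.05 (2.81% of all rows), with a median of −0.96. Slc3a2, the heavy chain of amino acid exchangers, measured 1156 and 576 CPM in “High”, 164 and 232 CPM in “Medium”, and 245 and 150 CPM in “Low”. Its log2 fold change was −2.13 (SE 0.36, adjusted p = 0.0781 by edgeR), the lowest adjusted p of the list. Slc7a11, the cystine transporter that pairs with it, measured 327 and 481 CPM in “High”, 25.9 and 87.7 CPM in “Medium”, and 137 and 11.2 CPM in “Low”. Slc7a1, a carrier of lysine and arginine, measured 192 and 391 CPM in “High”, 163 and 96.3 CPM in “Medium”, and 54.6 and 36.4 CPM in “Low”. Slc38a2, a carrier of small neutral amino acids, measured 205 and 320 CPM in “High”, 69.0 and 65.1 CPM in “Medium”, and 136 and 94.3 CPM in “Low”. All 4 libraries of the other films were below “High” for each of these transporters. Sesn2, a leucine sensor, measured 189 and 423 CPM in “High”, 111 and 63.6 CPM in “Medium”, and 0 and 10.2 CPM in “Low”, and Atf3, a stress-induced factor, measured 204 and 69.4 CPM in “High” and 0 in the other 4 libraries.

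Atf4 itself did not separate the films at the level of its transcript, at 410 and 338 CPM in “High”, 187 and 453 CPM in “Medium”, and 136 and 383 CPM in “Low” (log2 fold change −0.38). Its protein is controlled mainly by translation, which these counts do not measure. Asns, the asparagine synthetase that supplies the substrate of Nars, measured 136 and 116 CPM in “High”, 37.8 and 147 CPM in “Medium”, and 53.7 and 50.7 CPM in “Low”, overlapping through the second “Medium” library. Phgdh, the first enzyme of serine synthesis, was the one gene of the 31 with all 4 libraries above “High” (8.06% of all rows), at 110 and 101 CPM in “High”, 173 and 137 CPM in “Medium”, and 121 and 213 CPM in “Low”. Among the sensors of uncharged transfer RNA, Eif2ak4, which encodes GCN2, measured 134 and 65.1 CPM in “High”, 21.3 and 50.4 CPM in “Medium”, and 2.61 and 18.5 CPM in “Low”. Eif2s1, which encodes eIF2α, lay the other way, at 161 and 185 CPM in “High”, 424 and 222 CPM in “Medium”, and 207 and 507 CPM in “Low” (unadjusted p = 0.0645). Of the 4 sensor genes measured, 2 had log2 fold changes above 0 and 2 below.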

How the data were processed

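The authors made QuantSeq 3′ libraries, used Bowtie2 for alignment and the coverage tool of bedtools for counting, where reads with a single and with several alignments both entered. The submitters' processing notes name the build rn6, and the annotation and the use of strand are not given in the sources used here. The deposited values are whole-number counts per gene, 1 table of 17048 rows (16881 different symbols) per library, with 0 columns of other samples. Rows were kept apart, and members matched on the symbol as given.

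Groups came from the sample labels. With R 4.3.3 and edgeR 4.0.16, filterByExpr left 7729 rows, TMM factors were computed (0.777 to 1.14), and all 6 libraries entered one quasi-likelihood fit of 3 film means, with Benjamini-Hochberg adjustment over all rows and a threshold of 0.05. The common dispersion was 2.04. Group values are mean ± SD over 2 libraries. Values of 0 were given a floor of 3 counts per library, and folds against films at 0 are lower bounds from it. No pair of libraries held identical tables (at most 11.3% of tested rows agreed).

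Every cytosolic or mitochondrial member is named or counted, apart from 1 mitochondrial member that stays in the totals and medians and is not reported here on its own. Each library's value is given for genes on one side of both “High” libraries, for up to 5 further members of lowest p, for the 3 most abundant, and for the mitochondrial members tested. Partner genes are named where they separate, up to 6 per list by lowest p. Outside these rules Phgdh, Atf4, Asns, Eef1a1 and the scaffolds, and the values of Qars, Dars, Hars, Farsa and Lars, were chosen after they were seen. The members, lists and motif were chosen with earlier results of these data known. DESeq2 1.42.0, limma-voom (limma 3.58.1), RLE factors, library sizes alone, no filter, removal of ribosomal RNA rows, a replicate block and leaving out each library were tried. On simulated data for “Low” and “Medium” against “High”, with 200 genes changed in each of 3 draws, a mean of 0.667 of the 190.3 changed genes tested was recovered per draw at 2-fold, beside 3 false calls among 7137 genes, and 20.7 of 191.7 at 4-fold, beside 4 false calls among 7147 genes.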

Additional observations from a re-analysis of the deposited data

How the results depend on the processing

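Limits. With 2 libraries per film and a common dispersion of 2.04, the edgeR test called few rows, so a missing call does not show that a gene was equal between films. The “High” libraries had the most ribosomal RNA and the lowest TMM factors, and the choice of scaling moved the median of all rows for “Low” and “Medium” against “High” from −0.12 to 0.26 with library sizes alone. Mitochondrial members had counts too low and too irregular for film means. The counts of cytosolic genes and of listed ATF4 targets below 0, and the median of the listed targets, were chosen after seeing the data; over all alternatives these counts ran from 10 to 16 and from 9 to 12.

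Rows called for “Low” and “Medium” against “High” were 10 (7 lower, 3 higher), and 6 lower and 8 higher with library sizes alone. DESeq2 called 375 rows, 300 for “Low” against “High”, 307 for “Medium” against “High” and 116 for “Low” against “Medium”, and of the synthetases 3 (Aars, Nars, Kars), 2 (Aars, Tars2), 3 (Aars, Nars, Kars) and 1 (Tars2) in that order, with adjusted p of 1.59e-07 for Aars (log2 fold change −1.61), 0.00495 for Nars (−1.26) and 0.0304 for Kars (0.65), while over the other alternatives these adjusted p ran up to 0.651 for Aars and to 1 after rounding for Nars and Kars. Without the filter on low counts 68, 34, 48 and 5 rows were called in these comparisons, and 1 synthetase, Aars (−1.55, adjusted p = 0.0438), in the first. limma-voom called 23, 16 and 14 rows in the 3 comparisons against “High”, and library sizes alone left 0 rows for “Low” and 0 for “Medium” against “High”. Removing ribosomal RNA rows left 2 rows for “Low” against “High”.

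With library sizes alone the cytosolic median was −0.060 for “Low” and “Medium” against “High”, −0.41 for “Low” and 0.22 for “Medium”, that of the listed ATF4 targets −0.34, the summed cytosolic level of “High” 3229 CPM and the summed mitochondrial level of “Low” 139 CPM. With ribosomal RNA rows removed the summed cytosolic levels were 4690 CPM (“High”), 3865 CPM (“Medium”) and 3343 CPM (“Low”), and the mitochondrial level of “Low” was 154 CPM, since each library total is smaller. With limma-voom the medians were −0.70 (cytosolic) and 1.57 (mitochondrial). Single members turned sign, with DESeq2 (Rars −0.034, Mars −0.049), RLE factors (Rars −0.034, Mars −0.048), library sizes alone (Wars 0.37, Qars 0.049) and limma-voom (Ears2 −1.66, Rars −0.038, Hars −1.85, Farsa −0.73, Tars2 0.54, Mars −0.11). The cause was not tested.

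Same-numbered libraries did not deviate together over the rows tested (correlations 0.00655, 0.00342 and 0.00733). This check cannot exclude that the numbers pair the libraries, since the wide spread of single genes can hide a small shared shift. With the replicate block 57, 30 and 39 rows were called in the 3 comparisons against “High”, with 1 synthetase in the first (Aars, −1.55, adjusted p = 0.0461), the mitochondrial median for “Low” against “High” was 1.29, and Ears2 (−5.42), Hars (−0.56) and Mars (−0.18) turned sign.

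Leaving out each library in turn gave 34 to 242 rows called for “Low” and “Medium” against “High”, 19 to 65 for “Low” against “High”, 11 to 275 for “Medium” against “High” and 0 to 194 for “Low” against “Medium”. Synthetases called were 0 to 2 (Aars without the second “Medium” library, Aars and Sars without the second “Low” library), 0 to 1 (Sars), 0 to 1 (Hars) and 0 to 1 (Hars or Sars) in that order. The cytosolic median ran from −0.997 to −0.081, and for “Medium” against “High” from −0.73 to 0.15. The mitochondrial median ran from −0.68 to 5.14, for “Low” against “High” from −1.66 to 4.95, and for “Medium” against “High” from −0.10 to 5.95. The median of the listed ATF4 targets ran from −1.02 to −0.82. Among the members reported singly, those that turned sign were Gars (−0.11 to 0.39), Rars (−0.27 to 0.23), Mars (−0.51 to 0.50), Wars (−0.44 to 0.47), Qars (−0.70 to 0.17), Dars (−4.93 to 1.60), Hars (−5.45 to 0.95), Farsa (−4.69 to 2.81), Ears2 (−3.63 to 2.06), Cars2 (−0.80 to 9.06), Tars2 (−4.28 to 6.05) and Aars2 (−6.23 to 5.11). Where a film was left with 1 library, that library was assumed to vary like the other films. Aars, Nars, Cars, Eprs, Yars and Kars kept their direction for “Low” and “Medium” against “High” under every alternative tried.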
